A study of Mus musculus with 6 samples.

Results

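The genes described here are 10 established direct targets of p53, the transcription factor encoded by Trp53, taken by gene name from a table of 34745 genes: Ccng1, Mdm2, Bax, Bbc3, Aen, Eda2r, Sesn1, Phlda3, Trp53inp1 and Zmat3. Cdkn1a, the target that arrests the cell cycle, is not among the 10 and is given only for comparison. The mRNA was measured in NOR-10, 1 established line of mouse skeletal muscle fibroblasts, in 3 control libraries (Con, cells given PBS) and 3 libraries of cells given D-galactose (Dgal, 20 mg/mL of D-gal for 3 days), which the study used as a model of cellular aging. No genetic change is stated for either group. The sources used here do not say whether replicates came from separate cultures, so p-values measure the spread between these libraries.

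In the Dgal libraries the 10 targets did not move one way. Sesn1 rose 2.17-fold, Eda2r rose 1.42-fold, Ccng1 rose 1.27-fold and Phlda3 rose 1.13-fold, while Bbc3 fell to 0.772 and Zmat3 to 0.872 of the control level. Mdm2, Bax, Trp53inp1 and Aen did not pass the test. Thus 6 of 10 were called at an adjusted p under 0.05 (quasi-likelihood test of edgeR, Benjamini-Hochberg adjustment over 13407 genes, n = 3 per group), beside 34.8% of all genes tested. The 4 higher targets stand beside 16.9% of all genes called higher, and the 2 lower ones beside 17.8% called lower. Only Sesn1 also reached a log2 fold change of 1 in size, the further threshold of the study's methods, which 4.21% of all genes passed in either direction and 2.37% as higher. The 3 libraries of each group did not overlap for 7 of the 10 targets, 5 higher and 2 lower, beside 49.1% of all genes tested.

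p53 is held at a low level by the ubiquitin ligase Mdm2 and is released from it when DNA is damaged or the cell is stressed in other ways. It then binds a pair of short decamer elements near its target genes and raises their transcription, so that growth slows, damage is repaired or the cell dies. Several targets feed back on p53 itself, and in fibroblasts the same network is studied for its part in cellular senescence.

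To show the DNA beside the mRNA values, RefSeq promoter windows (GRCm38.p6, from 250 bases before to 50 bases after a transcription start) were searched for the 10-base p53 decamer consensus, which is its own reverse complement, so that 1 search covers both strands. A window existed for 8 of the 10 genes, and Zmat3 and Trp53inp1 were not analysed here. An exact match lay in a window of 5 of the 8 genes beside 9.55% of all genes with a window, and in 6 of their 12 windows beside 8.36% of all 32851 windows. The windows of Aen overlap and share the same match and pair, which therefore count more than once in the shares of windows. Since the genes were chosen as known p53 targets, these shares describe the choice and test nothing. The 30 bases around each match are printed 5′ to 3′ on the gene's strand, with the match in capitals.
Ccng1, chr11:40755457-40755486, - strand: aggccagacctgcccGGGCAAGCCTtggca
Mdm2, chr10:117710919-117710948, - strand: atagGAACTTGCCTagcgaccattgcggtt
Bax, chr7:45467086-45467115, - strand: atgacaagcatatcccAGGCAAGCTTtgaa
Aen, chr7:78895935-78895964, + strand: ccGGGCTTGTCCgggcaaggagcttccgca
Sesn1, chr10:41887249-41887278, + strand (the start inside the gene): ctgggcgcttggccttcAAGCTTGTTTttg
The match began 185 bases upstream of the start in Ccng1, 186 in Mdm2, 201 in Bax and 173 in Sesn1, and in Aen 121 bases upstream of 1 start and 10 bases downstream of another. The best neighbouring decamer within 13 bases had 1 mismatch to the consensus in Ccng1, directly adjoining the match, and 1 mismatch in Bax, 1 base away. It had 2 mismatches in Sesn1 and in Aen, and 4 in Mdm2. Pairs with at most 2 mismatches in all lay in 5 of the 12 windows, beside 10.1% of all windows, and so in 4 of the 8 genes, beside 11.5% of all genes with a window. No exact match lay in these windows of Eda2r, Phlda3 and Bbc3. Of the 5 genes with a match, Sesn1 and Ccng1 rose and 3 were not called, and of the 3 without one, Eda2r and Phlda3 rose and Bbc3 fell. A match describes these letters only and is neither a bound site nor a cause.

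Library totals lay between 16876087 and 20830349 counts in Con and between 13759108 and 15157064 in Dgal, so every control library was deeper. With all libraries thinned to the smallest total, the number of targets called was again 6. Of 10 fibroblast marker genes 8 were tested, 6 were lower and 1 was higher, beside 17.8% of all genes tested called lower and 16.9% higher. The summed level of the 10 was 7150 to 7354 CPM (counts scaled to the same library size) in Con and 4692 to 4818 in Dgal. Col1a1, Col1a2 and Vim held the most counts, going on average from 39305 to 24065, 35912 to 18327 and 22151 to 15696 normalised counts. Pdgfra was not called (log2 fold change -0.08), and Pdgfrb was the higher marker (0.19). By Western blot the study reported more COL-1 protein after D-gal, which mRNA counts do not measure. Lum was at 0 or 1 count and Fap at 1 to 5 counts in every library. Myogenic markers summed to 5.35 to 6.08 CPM in Con and 3.75 to 4.03 in Dgal, with Pax7, Myf5 and Myod1 at 0 throughout. Endothelial markers summed to 4.52 to 5.40 and 3.09 to 3.38 CPM, leukocyte markers to 0.662 to 2.03 and 0.195 to 0.646 CPM, and adipocyte markers to at most 0.0486 CPM. Mitochondrially encoded genes took 4.26% to 4.44% of counts in Con and 4.87% to 4.98% in Dgal. The part of these shifts in the changes of the p53 targets was not tested. In bulk RNA, fewer cells of a type and a lower level of particular mRNAs per cell cannot be told apart.

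Of the genes that feed back on p53, Ccng1 rose and Mdm2 was not called. Ccng1 (chromosome 11, 40748552 to 40755311, minus strand, GRCm38) encodes cyclin G1, which recruits a phosphatase to Mdm2. Its normalised counts were 16955, 16532 and 16931 in Con replicates 1 to 3 and 21163, 21573 and 21248 in Dgal replicates 1 to 3. All Dgal libraries lay above all Con libraries, and within a group the highest library was at most 1.03 times the lowest. The log2 fold change was 0.34 (SE 0.02, 95% interval 0.29 to 0.40), with an adjusted p of 4.1e-05 by edgeR's quasi-likelihood test. Mdm2 (chromosome 10, 117688888 to 117710758, minus strand) encodes the ligase that marks p53 for degradation. Its normalised counts were 5874, 6042 and 5870 in Con and 6221, 6189 and 6403 in Dgal. The groups did not overlap here either, and the log2 fold change was 0.08 (95% interval 0.01 to 0.15), with an adjusted p of 0.0711 by edgeR. Limma on the deposited FPKM values placed Mdm2 past the threshold (log2 fold change 0.11, adjusted p = 0.0251). The intervals of Ccng1 and Mdm2 did not overlap each other.

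**Figure D1:**
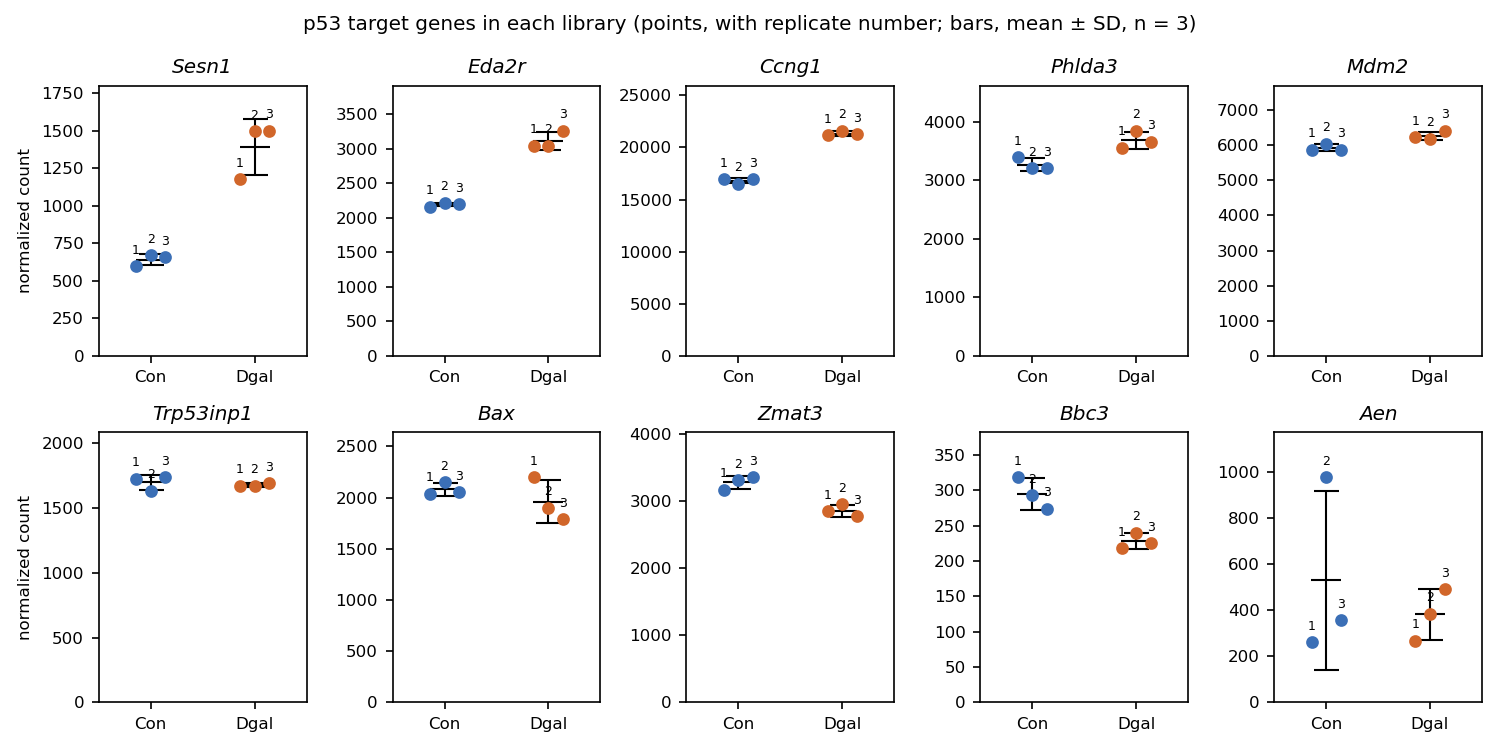
Normalised counts (y axes, linear from 0, a scale for each gene) of the 10 p53 targets in the 3 Con and 3 Dgal libraries, numbered by replicate, with bars for mean ± SD (n = 3). Sesn1, Eda2r, Ccng1, Phlda3 and Mdm2 lie higher in every Dgal library, Zmat3 and Bbc3 lie lower, and Aen is marked by Con replicate 2 at 976.

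The 4 genes of apoptosis went different ways: Eda2r was higher, Bbc3 was lower, and Bax and Aen were not called. Eda2r (chromosome X, 97333840 to 97377216, minus strand) encodes a receptor of the tumour necrosis factor family for a form of ectodysplasin. Counts after normalisation were 2162, 2217 and 2198 in Con and 3040, 3043 and 3257 in Dgal. The gap between the groups was wider than the range within either, with a log2 fold change of 0.51 (SE 0.04, 95% interval 0.42 to 0.60, adjusted p = 6.3e-05 by edgeR). Bbc3 (chromosome 7, 16309616 to 16318205, plus strand) encodes PUMA, a BH3-only protein that binds the survival proteins of the BCL2 family. Control libraries 1 to 3 held 318, 293 and 274 normalised counts, and Dgal libraries 1 to 3 held 218, 240 and 225. Every Dgal library was below every Con library, and Con replicate 1 was the highest. The log2 fold change was -0.37 (SE 0.09, 95% interval -0.58 to -0.16, adjusted p = 0.0150 by edgeR), and without Con replicate 1 the adjusted p was 0.0529.

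Bax (chromosome 7, 45461695 to 45466898, minus strand) encodes the effector that opens pores in the outer mitochondrial membrane. Its normalised counts were 2036, 2152 and 2054 in Con and 2197, 1901 and 1787 in Dgal. The groups overlapped, since Dgal replicate 1 was the highest of the 6 libraries and Dgal replicate 3 the lowest. The log2 fold change was -0.08 (95% interval -0.25 to 0.08, adjusted p = 0.408 by edgeR). Without Dgal replicate 1 it was -0.17 with an adjusted p of 0.0329 by edgeR, the only 1 of 13 alternatives in which Bax was called. Without Dgal replicate 3 it was -0.02 with an adjusted p of 0.835. In GENCODE release M21, 192 bases of Bax exons (12.2%) are also exon of Gm45808 on the same strand, and reads there could be counted for either gene. Aen (chromosome 7, 78895854 to 78911209, plus strand) encodes a nuclease that enhances apoptosis. Counts after normalisation were 261, 976 and 356 in Con and 268, 386 and 492 in Dgal. Con replicate 2 stood far above the other 5 libraries, at 3.73 times the lowest control, from 1196 raw counts against 300 and 352. Aen's log2 fold change had a wide interval (-0.48, 95% interval -1.56 to 0.59, adjusted p = 0.463 by edgeR), and without Con replicate 2 it was 0.31 with an adjusted p of 0.406. Among the 9207 genes with a mean of at least 200 normalised counts, 11 lay over 2-fold above the other 2 control libraries in Con replicate 2, beside 5 to 13 in the other 5 libraries against their own groups.

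Among the genes of growth and stress signalling, Sesn1 showed the largest change of the 10 targets under edgeR. Sesn1 (chromosome 10, 41810574 to 41908424, plus strand) encodes a sestrin, a stress-induced protein that restrains the growth kinase complex mTORC1. Its normalised counts were 598, 672 and 657 in Con and 1178, 1499 and 1500 in Dgal. Even the lowest Dgal library was well above the highest Con library, although Dgal replicate 1 lay apart from the other 2. Its log2 fold change was 1.12 (SE 0.10, 95% interval 0.89 to 1.35, adjusted p = 1.3e-04 by edgeR), a 2.17-fold rise with an interval from 1.85 to 2.54. Leaving out each library in turn gave 1.06 to 1.22, past both thresholds each time. Phlda3 (chromosome 1, 135766119 to 135769136, plus strand) encodes a small PH domain protein that competes with the kinase Akt for membrane lipids. Counts after normalisation were 3400, 3208 and 3210 in Con and 3562, 3846 and 3662 in Dgal. The groups did not overlap, with Con replicate 1 nearest to the Dgal libraries. The log2 fold change was 0.17 (SE 0.04, 95% interval 0.08 to 0.27, adjusted p = 0.0144 by edgeR), and the adjusted p was 0.0522 without Con replicate 2 and 0.0513 without Con replicate 3. Trp53inp1 (chromosome 4, 11156431 to 11174379, plus strand) encodes a nuclear stress protein that partners p53. Control libraries 1 to 3 held 1723, 1632 and 1734 normalised counts, and Dgal libraries 1 to 3 held 1669, 1670 and 1691. All Dgal values lay within the range of the controls, and the log2 fold change was -0.02 (95% interval -0.11 to 0.07, adjusted p = 0.776 by edgeR).

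Zmat3, the single RNA-binding protein of the set, was lower in Dgal. It lies on chromosome 3 (32334792 to 32366014, minus strand) and encodes a zinc finger protein that acts on the splicing and stability of other mRNAs. Its normalised counts were 3176, 3316 and 3356 in Con and 2854, 2955 and 2775 in Dgal, with no overlap between the groups. The log2 fold change was -0.20 (SE 0.04, 95% interval -0.29 to -0.11, adjusted p = 0.00567 by edgeR).

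**Figure D2:**
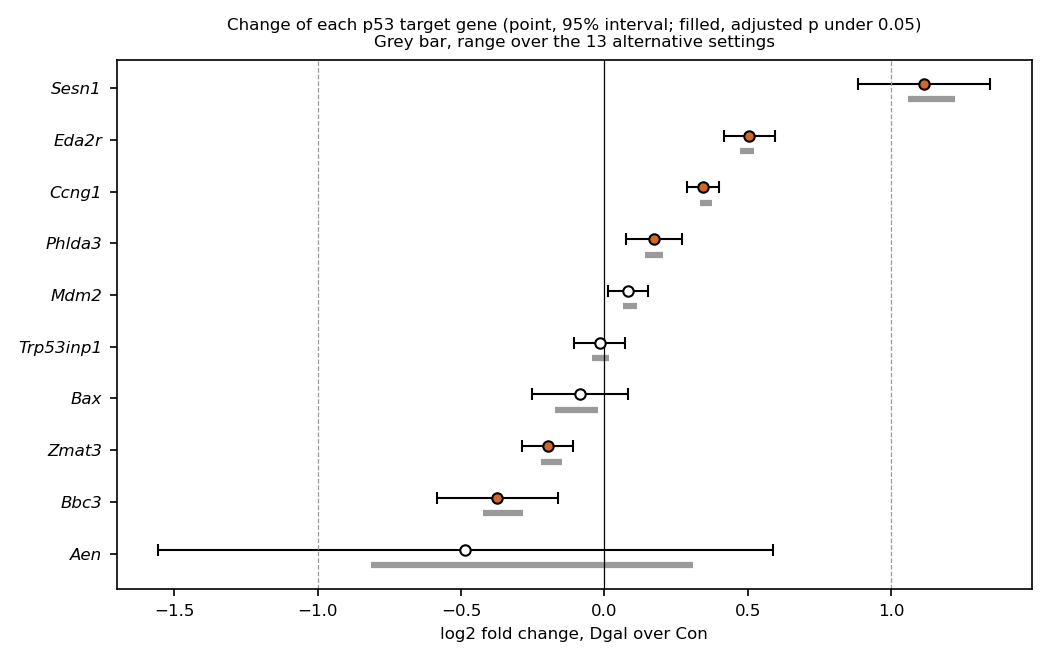
Log2 fold change of each p53 target, Dgal over Con (x axis), with 95% intervals, filled points for an adjusted p under 0.05, grey bars for the range over 13 alternative settings and dashed lines at a change of 1 in size. The order runs from Sesn1 at 1.12 to Aen at -0.48, whose interval and grey bar are the widest.

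Ordered by log2 fold change, Sesn1, Eda2r, Ccng1 and Phlda3 came first, and the 95% interval of each of the first 3 lay clear of the next gene's. From Phlda3 down to Aen, each gene's interval overlapped that of its neighbour, so neighbours there are not resolved, but the intervals of Phlda3 and Mdm2 lay clear of those of Zmat3 and Bbc3. Sesn1's change was larger in size than that of 96.2% of all genes tested, Eda2r's than 82.8% and Ccng1's than 71.0%, while Trp53inp1's was larger than 5.12%. The median log2 fold change of the 10 targets was 0.03, beside 0.0036 for all genes tested, and the median size of change was 0.271 beside 0.194.

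Between genes, levels can be compared only per exon length. In Con, Ccng1 was the most abundant target at 285 ± 4.04 CPM per kilobase (SD, n = 3), above 99.2% of the genes tested. Phlda3 followed at 125 ± 4.20, Bax at 78.7 ± 2.36 and Mdm2 at 69.5 ± 1.15 CPM per kilobase. Eda2r at 22.2 ± 0.283, Zmat3 at 17.1 ± 0.491 and Trp53inp1 at 15.6 ± 0.515 CPM per kilobase formed the middle of the order. Sesn1 at 9.62 ± 0.590, Bbc3 at 8.27 ± 0.625 and Aen at 5.45 ± 3.99 CPM per kilobase were lowest. Of these neighbours only Bbc3 and Aen overlapped between control libraries, where the range of Aen also reached that of Sesn1. In Dgal the first 5 and the last 2 places were the same, and Bax (74.2 ± 8.01) and Mdm2 (73.5 ± 1.35 CPM per kilobase) did not differ beyond their spread. Sesn1, at 20.8 ± 2.78 CPM per kilobase, moved from place 8 to place 6, while Trp53inp1 (15.4 ± 0.114) stayed in place 7 and Zmat3 (14.9 ± 0.470) went from place 6 to place 8. The deposited FPKM values rest on the authors' own gene lengths and in Con put Bax in place 2, Phlda3 in place 3, Trp53inp1 in place 6, Sesn1 in place 7 and Zmat3 in place 8.

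**Figure D3:**
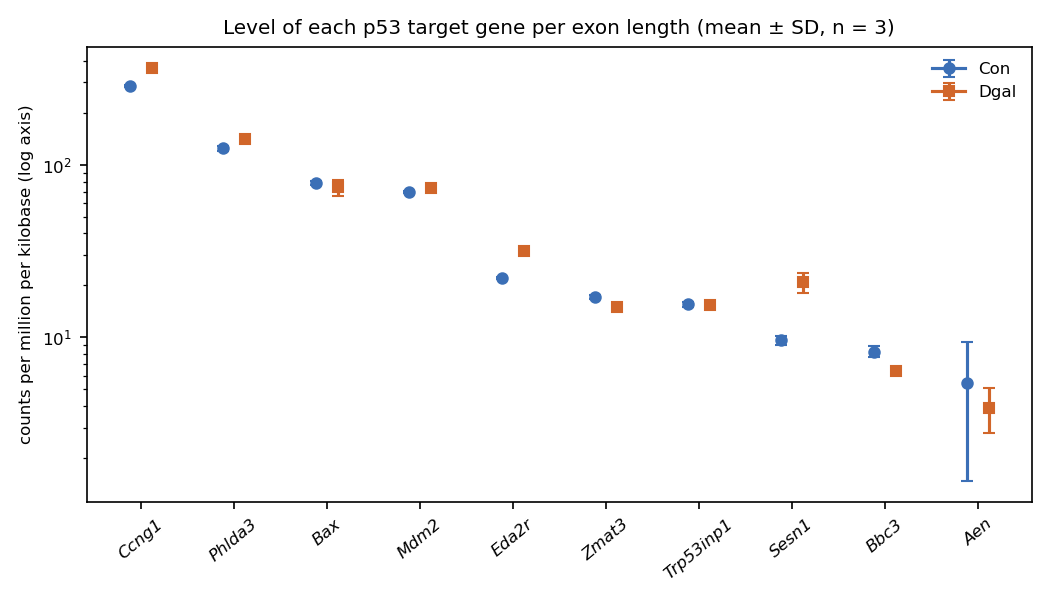
Level per kilobase of exon (CPM per kilobase, log axis) of the 10 p53 targets in Con (circles) and Dgal (squares), mean ± SD (n = 3), ordered by the Con level. Ccng1 is highest in both groups at 285 and 362, Sesn1 goes from 9.62 to 20.8 and from place 8 to place 6, and Zmat3 from place 6 to place 8.

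The upstream side of the pathway was examined through 17 regulators of p53, of which 16 were tested: 5 were higher, 2 were lower and 9 were not called, with a median log2 fold change of -0.08 beside 0.0036 for all genes, of which 34.8% were called. Trp53 itself had normalised counts of 4411, 4842 and 4221 in Con and 4664, 4669 and 4119 in Dgal. These overlapped, with a log2 fold change near zero (95% interval -0.15 to 0.15, adjusted p = 0.983 by edgeR), and 10.2% of the 31-base words of its exons also occur in other genes, chiefly the pseudogene Trp53-ps. By Western blot, the study reported more p53 protein in NOR-10 cells given D-gal, and mRNA counts do not measure protein. The largest rise among the regulators under edgeR was that of Hipk2, a kinase that phosphorylates p53, from 904 to 1325 normalised counts on average (log2 fold change 0.55, SE 0.05, adjusted p = 1.7e-04). Ppm1d, a phosphatase that acts against p53 and, as its target, also counts in the wider list, rose from 789 to 1076 (0.45, adjusted p = 4.1e-04), and Cdkn2a, which encodes p16 and the Mdm2 inhibitor Arf, rose by a log2 fold change of 0.23 (adjusted p = 0.0103). A count per gene does not separate the p16 and Arf transcripts. The study's Western blot also showed more p16 protein, which was not measured here. The damage kinases parted, with Atm at 0.16 (adjusted p = 0.0202) and Atr at -0.24 (adjusted p = 0.0162), and each lost its call under 3 of 13 alternatives. Cop1, a ubiquitin ligase for p53 that was picked after its values were seen, was just inside the threshold at 0.18 (adjusted p = 0.0493). Mdm4, the partner of Mdm2, was at -0.12 (adjusted p = 0.0394) and lost its call under 10 of 13 alternatives. Of the 31-base words, 13.79% of those of Mdm4 and 12.75% of those of Cop1 occur in other genes, chiefly Mdm4-ps and Gm6206. The number called was 4 without Con replicate 2 and 4 without Dgal replicate 1, in place of 7.

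In a wider list of 35 further p53 targets, 34 were tested, 15 were higher, 3 were lower and 16 were not called, with a median log2 fold change of 0.11. Over all genes tested, 16.9% were called higher and 17.8% lower. Cdkn1a was not called: its normalised counts were 5043, 4808 and 4780 in Con and 5045, 5044 and 5016 in Dgal, with a log2 fold change of 0.05 (95% interval -0.03 to 0.12, adjusted p = 0.315 by edgeR). The called genes with the smallest p were Epha2, a receptor tyrosine kinase, which rose from 1989 to 2806 normalised counts on average (log2 fold change 0.50, adjusted p = 6.9e-05), Ikbip (0.34, adjusted p = 1.7e-04), Dram1, Ppm1d and Psrc1 (0.35, adjusted p = 9.9e-04). Dram1, a lysosomal membrane protein of autophagy, fell from 532 to 337 normalised counts (log2 fold change -0.66, SE 0.07, adjusted p = 3.4e-04). Gls2, a mitochondrial glutaminase picked after its values were seen, was lower by a similar amount (-0.65, adjusted p = 0.0123). Gdf15, a secreted stress cytokine, had normalised counts of 337, 262 and 250 in Con and 200, 206 and 215 in Dgal. Its groups did not overlap and its log2 fold change was -0.45 (adjusted p = 0.0260 by edgeR), but it lost its call when Con replicate 1 or any of the Dgal replicates was left out, with adjusted p from 0.0528 to 0.0720. No gene of this list reached a log2 fold change of 1 in size with an adjusted p under 0.05.

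**Figure D4:**
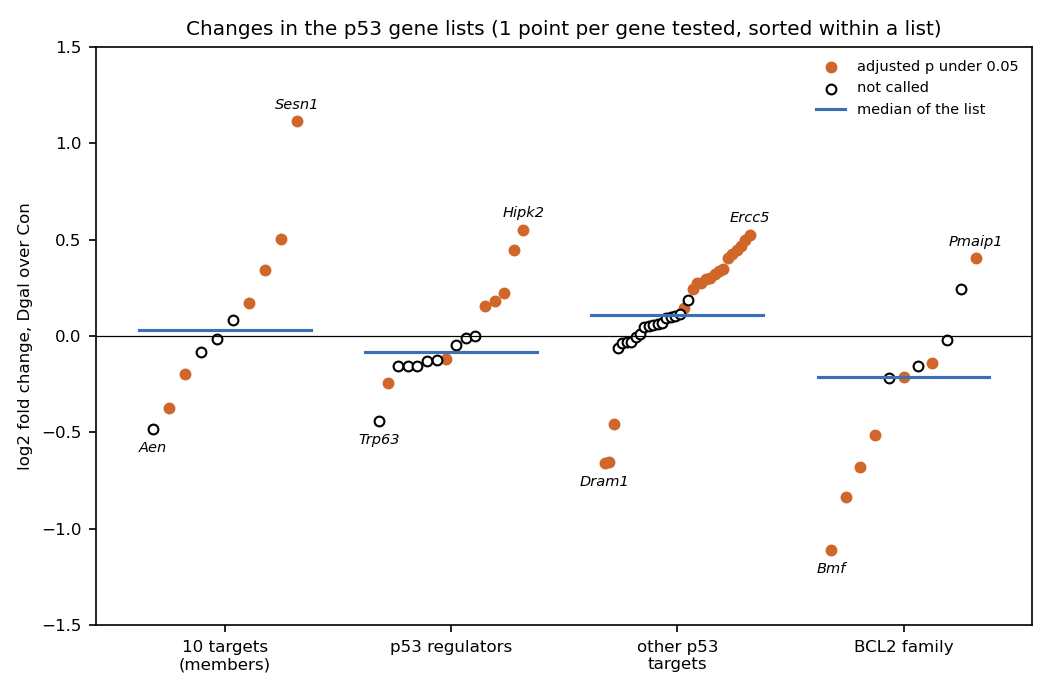
Log2 fold change (y axis, Dgal over Con) of each tested gene in the 10 targets, the p53 regulators, the other p53 targets and the BCL2 family, sorted within each list, filled for an adjusted p under 0.05, with a line at each list's median. The medians are 0.03, -0.08, 0.11 and -0.21.

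Bax and Bbc3 belong to the BCL2 family, of which 17 other members were looked up and 11 were tested. Of these, 6 were lower, 1 was higher and 4 were not called, with a median log2 fold change of -0.21, where 34.8% of all genes tested were called and 17.8% were lower. The lower genes lie on both sides of cell death. Bcl2l2 and Mcl1 encode survival proteins, and their log2 fold changes were -0.84 (adjusted p = 4.2e-04) and -0.14 (adjusted p = 0.0271), the latter losing its call under 7 of 13 alternatives. Bmf, a BH3-only protein like Bbc3, was at -1.11 (SE 0.19, adjusted p = 0.00277), with 96.7, 97.1 and 113 normalised counts in Con and 58.4, 47.0 and 36.2 in Dgal. Bok, an effector related to Bax, was at -0.51 (adjusted p = 0.00610). Pmaip1, which encodes NOXA and is a p53 target itself, was the 1 higher member, with 154, 150 and 136 normalised counts in Con and 194, 201 and 188 in Dgal (0.40, adjusted p = 0.0144 by edgeR, and 0.0620 by DESeq2). The number called was 4 without Con replicate 2 and 4 without Dgal replicate 2, in place of 7, and 12.8% of the 31-base words of Bcl2l2 occur in other genes.

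The paralogs and partners of the 10 targets were compared to see whether relatives moved with them. Of 18 such genes, 14 were tested, 1 was higher, 3 were lower and 10 were not called, with a median log2 fold change of -0.04, where 34.8% of all genes tested were called. The higher gene was Tnfrsf19, a receptor related to Eda2r, at 0.86 (SE 0.19, adjusted p = 0.00993 by edgeR, 0.0663 by DESeq2) from 22.2 to 26.1 normalised counts in Con and 40.4 to 47.0 in Dgal. The lower ones were Bok, Mdm4 and Trp53inp2, the last at -0.13 (adjusted p = 0.0173) and not called under 3 of 13 alternatives, and the number called was 2 without Con replicate 1 and 2 without Con replicate 2. Zmat5 was at 0.29 and not called (adjusted p = 0.0802). The other sestrins were not called, with Sesn2 at 0.09 (95% interval -0.05 to 0.23) and Sesn3 at 0.04 (95% interval -0.11 to 0.18), while Ccng2 was at -0.05 (95% interval -0.20 to 0.10).

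Within each library, the log2 ratio of a target to its paralog was also compared for 11 pairs, which were chosen after the values had been seen. The ratio of Sesn1 to Sesn2 was -1.01, -0.88 and -0.74 in Con and -0.12, 0.20 and 0.34 in Dgal. Every Dgal library was above every control library, with Con replicate 1 lowest, and since the ratio is of counts, not of levels per length, only its shift between libraries is read. Ratios did not overlap between groups for 8 of the 11 pairs, 7 higher and 1 lower. A share over other gene pairs was not computed, and 49.1% of single genes tested did not overlap between groups. The differences were 1.02 for Sesn1 to Sesn2, 1.07 for Sesn1 to Sesn3, 0.42 for Bax to Bok and 0.39 for Ccng1 to Ccng2. They were 0.29 for Phlda3 to Phlda1, 0.20 for Mdm2 to Mdm4, 0.12 for Trp53inp1 to Trp53inp2 and -0.37 for Eda2r to Tnfrsf19. Bax, Mdm2 and Trp53inp1 were not called themselves, while Bok, Mdm4 and Trp53inp2 were called lower, so a higher ratio need not mean a risen target. Each of the 8 had a two-sided exact permutation p of 0.1, the smallest that 3 against 3 libraries allows, and 0.138 after adjustment over the 11 pairs, so none could pass.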

How the data were processed

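RNA-seq of NOR-10 fibroblasts (3 Con and 3 Dgal libraries) was re-analysed. Groups and replicate numbers came from the labels, and dose and duration from the study's methods. The deposited table gives raw counts per gene, which the authors did not normalise, and FPKM values, which the authors scaled by gene length and library total. According to the methods, reads were checked with FastQC and trimmed with Trimmomatic, and per the submitters' processing notes, HISAT2 (version 2.0.4) was used. Counting, strand setting and annotation are not given in the sources used here. The labels name an RNA-seq library kit and the methods a small RNA kit, and the labels were followed. Library totals were 13759108 to 20830349 counts, and no replicate pair agreed within counting error (chi-square over its degrees of freedom 6.00 to 9.42).

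Counts were tested with edgeR (4.0.16, R 4.3.3) by TMM normalisation (factors 0.986 to 1.02), filterByExpr (13407 genes kept, all 10 targets among them) and its quasi-likelihood F test without covariates, and p-values were adjusted by the Benjamini-Hochberg method over all genes tested. Normalised counts are counts divided by TMM-scaled library size, times its mean. The SE is the log2 fold change over the square root of F. Paralog ratios were compared by a two-sided exact permutation test. The script was tested on simulated data. Alternatives were DESeq2 (1.42.0), RLE size factors, other filters, a replicate block, each library left out, counts thinned to the smallest library, limma (3.58.1) on log2(FPKM + 1) and an adjusted p under 0.01.

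The members and gene lists, written from general knowledge, were chosen with earlier results of these data known. Named genes are the 10 targets, Cdkn1a, Trp53, Mdm4, Gdf15 and the 5 smallest p of each list, and any other gene was chosen after its values were seen. Genes were selected by gene name and linked to GENCODE M21 by identifier, through which Cop1 was found under the name Rfwd2. Coordinates are those of the deposited table, and 6 of the 10 targets have the same start and end in GENCODE M21 (GRCm38).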

Additional observations from a re-analysis of the deposited data

How the results depend on the processing

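The count of targets called at an adjusted p under 0.05 lay between 4 (adjusted p under 0.01) and 7, and the count past both thresholds was 1 under every alternative run. Of 130 alternative values for the 10 targets, 123 kept direction and side of the threshold, 3 lost the call, 2 gained it and 2 turned: Trp53inp1 to 0.0167 with limma on log2(FPKM + 1), and Aen to 0.3103 without Con replicate 2, in a range from -0.8140 with single libraries left out. For other named genes, 233 of 273 values kept both, 33 lost the call, 2 gained it and 5 turned. The 5 that turned were of Trp53, whose log2 fold change near zero became 0.0001 with at least 10 counts in every library, 0.0023 with thinned counts, 0.0312 with limma on FPKM, 0.0561 without Con replicate 2 and 0.0543 without Dgal replicate 3, with -0.0462 the lowest value with a library left out. Over all genes, those past both thresholds went from 564 to 120 with limma on FPKM, and 4661 calls became 2729 at an adjusted p under 0.01. Calls among p53 regulators went from 7 to 4 with DESeq2 or limma on FPKM, those in the BCL2 family from 7 to 4 with limma on FPKM, and those among paralogs and partners from 4 to 2 with DESeq2. Leaving out single libraries gave 5 to 7 targets called, 7 to 8 targets whose groups did not overlap, 4 to 7 p53 regulators, 4 to 6 BCL2 family genes and 2 to 4 paralogs and partners. The causes were not tested. Replicate numbers did not pair the libraries (correlations of same-numbered deviations -0.01, -0.003 and 0.03), and with the number as a replicate block the BCL2 family had 4 calls and the targets 6. Among the 10 targets, raw counts were lowest for Bbc3 (187 to 365 per library), where counting error weighs most. Some other named genes were lower still, such as Tnfrsf19 (22 to 42 per library).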
